A study of Homo sapiens with 24 samples.

Results

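The 35 genes described here are targets of the transcription factor p53 and genes of the intrinsic and extrinsic apoptosis pathways, chosen by name from a gene table of 28297 Ensembl genes. Each of the 35 names was found once in the table, and all 35 passed the filter on low values in every test. They were grouped here into 6 roles: cell cycle arrest, feedback on p53, DNA repair and nucleotide supply, metabolism and redox, death receptors and effectors, and the BCL2 family. GDF15, which encodes a secreted cytokine, was placed with cell cycle arrest. Messenger RNA was sequenced in 24 libraries of H9 cells, a line of human embryonic stem cells grown in E8 medium. Of the 8 groups of 3 libraries, 4 came from monocultures. Cry2 light and Cry2 dark were engineered cells, which express Cry2-LRP6c-2A-mCherry, a plant photoreceptor joined to the intracellular part of the Wnt co-receptor LRP6, together with a puromycin resistance gene. The wt light and wt dark groups were cells without the receptor that carry eGFP and a neomycin resistance gene. The other 4 groups were sorted from co-cultures mixed 1:1: mCh light and mCh dark are the mCherry-positive engineered cells, and GFP light and GFP dark the GFP-positive wild-type cells. Light was 0.8 µW/mm² for 48 h, and each replicate pooled 2 to 3 wells. The engineered and the wild-type cells differ in the receptor, the fluorescent protein, the resistance gene and the history of the line, which cannot be told apart, and neither the labels nor the files say whether either line is a single clone. They do not say whether the pooled wells came from separate cultures either, so the p-values measure the spread between these libraries.

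The p53 protein is held at a low level by the ubiquitin ligase MDM2, itself encoded by a p53 target, and is stabilised by DNA damage and other stress. It then activates genes that stop the cell cycle, repair DNA, change metabolism or start apoptosis. Apoptosis runs through the mitochondrion, where BH3-only proteins such as BBC3 (PUMA), PMAIP1 (NOXA), BCL2L11 (BIM) and BIK oppose survival proteins such as BCL2 and permit BAX and BAK1 to open the outer membrane, after which APAF1 assembles the apoptosome. Human embryonic stem cells are known for a low threshold for apoptosis, and canonical Wnt signalling drives them towards primitive streak and mesoderm.

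A consensus p53 half-site, searched on both strands, was found in the promoter window (250 bases before to 50 after the annotated start) of 4 of the 29 members that have an entry in the RefSeq promoter table for GRCh38.p14. That is 13.79% of these members, against 6.632% of the 35116 promoters in the table (2329 promoters). A full site, 2 half-sites next to each other or a short spacer apart, was found in 0 of the 29 and in 10 of the 35116 promoters (0.02848%). The core of the TCF/LEF motif, CTTTGA on either strand, occurred in 3 of the 29 members (10.34%), FAS, EDA2R and BAK1, and in 12.92% of the 35116 promoters (4536 promoters). FBXO22, RRM2B, TP53INP1, TNFRSF10B, PHLDA3 and BIK had no entry. A match is a description of letters in this window and not a bound site. The 4 members with the half-site were PLK2, FDXR, AEN and BAK1. BAK1, with its half-site at -73, was not called under light in either engineered population. The windows of PLK2 (chr5:58460037-58460336, minus strand), FDXR (chr17:74872945-74873244, minus strand) and AEN (chr15:88621090-88621389, plus strand) are shown because these 3 genes carry the half-site and went in different directions under light. Capitals mark the half-site, at positions -132, -11 and -34 from the start.
PLK2: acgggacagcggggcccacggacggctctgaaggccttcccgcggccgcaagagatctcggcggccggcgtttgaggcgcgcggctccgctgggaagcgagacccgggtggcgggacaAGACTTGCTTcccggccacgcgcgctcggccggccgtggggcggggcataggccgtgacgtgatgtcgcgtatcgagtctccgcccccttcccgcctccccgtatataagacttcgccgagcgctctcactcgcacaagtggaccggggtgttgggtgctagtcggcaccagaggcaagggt
FDXR: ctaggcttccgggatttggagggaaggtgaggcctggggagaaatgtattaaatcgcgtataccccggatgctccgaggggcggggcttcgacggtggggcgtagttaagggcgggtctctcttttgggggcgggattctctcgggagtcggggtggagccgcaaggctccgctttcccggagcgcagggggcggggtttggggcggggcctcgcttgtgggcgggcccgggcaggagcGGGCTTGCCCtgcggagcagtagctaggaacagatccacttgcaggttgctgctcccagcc
AEN: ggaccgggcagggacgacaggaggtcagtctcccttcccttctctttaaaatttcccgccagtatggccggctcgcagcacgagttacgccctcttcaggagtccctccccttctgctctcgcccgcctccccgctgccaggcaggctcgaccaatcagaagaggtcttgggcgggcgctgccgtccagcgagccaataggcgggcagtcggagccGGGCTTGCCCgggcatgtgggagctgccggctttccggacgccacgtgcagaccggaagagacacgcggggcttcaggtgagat

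Values are the authors' normalised counts, and a change is the log2 ratio of groups on the log2(value + 1) scale with its standard error (SE). A gene was called, and is said to have risen or fallen, at a limma adjusted p under 0.05. Depth ran from 28237578 to 56639833 assigned reads per library, and in monoculture the dark libraries (28237578 to 34291124) were shallower than the light libraries (45763662 to 54707558), so that light and depth cannot be told apart there. Among the monoculture libraries, whose quality values could be matched to the labels, wt dark replicate 1 stood apart with 33.73% GC, against 50.47% to 51.77% in the other 11, and Cry2 dark replicate 3 with the lowest RNA integrity number (RIN), 7.6. The sample table also lists 1 GFP light library with a GC percent far below the rest. Its row matches no single sample label, so its quality values were not used and it is not named here as a, b or c. Read counts of wt light replicate 2 and mCh light a lay far from those of the rest of their groups. The labels were checked by the construct: the receptor fusion had 34166 to 61394 normalised counts in the 12 engineered libraries and 219 to 427 in the 12 wild-type libraries. The summed pluripotency markers (7 genes, among them POU5F1 and NANOG) had 80692 to 82177 normalised counts in Cry2 light and 80125 to 97651 in mCh light, against 274940 to 328550 in the other 6 groups. The summed primitive streak and mesoderm markers (6 genes) had 129430 to 132080 in Cry2 light, 118240 to 138660 in mCh light and 653 to 711 in GFP light, against 169 to 249 in the other 5 groups. In libraries of whole cultures or sorted populations, fewer cells of a type and less RNA per cell cannot be told apart, for any member described below.

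Per kilobase of exon, the highest mean level over the 24 libraries was that of CCNG1, which encodes cyclin G1 (5741 normalised counts per kilobase). BAX (2662), PMAIP1 (2103) and TRIAP1 (1912) followed, and FAS (26.8), SPATA18 (19.6), BIK (16.8) and BCL2 (12.4) were lowest. The members differed widely in how far they varied over the groups. The highest group mean was 9.14 times the lowest for BIK, 6.72 times for BTG2 and 6.54 times for PMAIP1. It was 1.14 times the lowest for XPC and 1.17 times for TIGAR. The highest group was an engineered group for all members but FBXO22 and BCL2L11 (GFP dark), TRIAP1 (wt light) and BCL2 (GFP light).

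**Figure D1:**
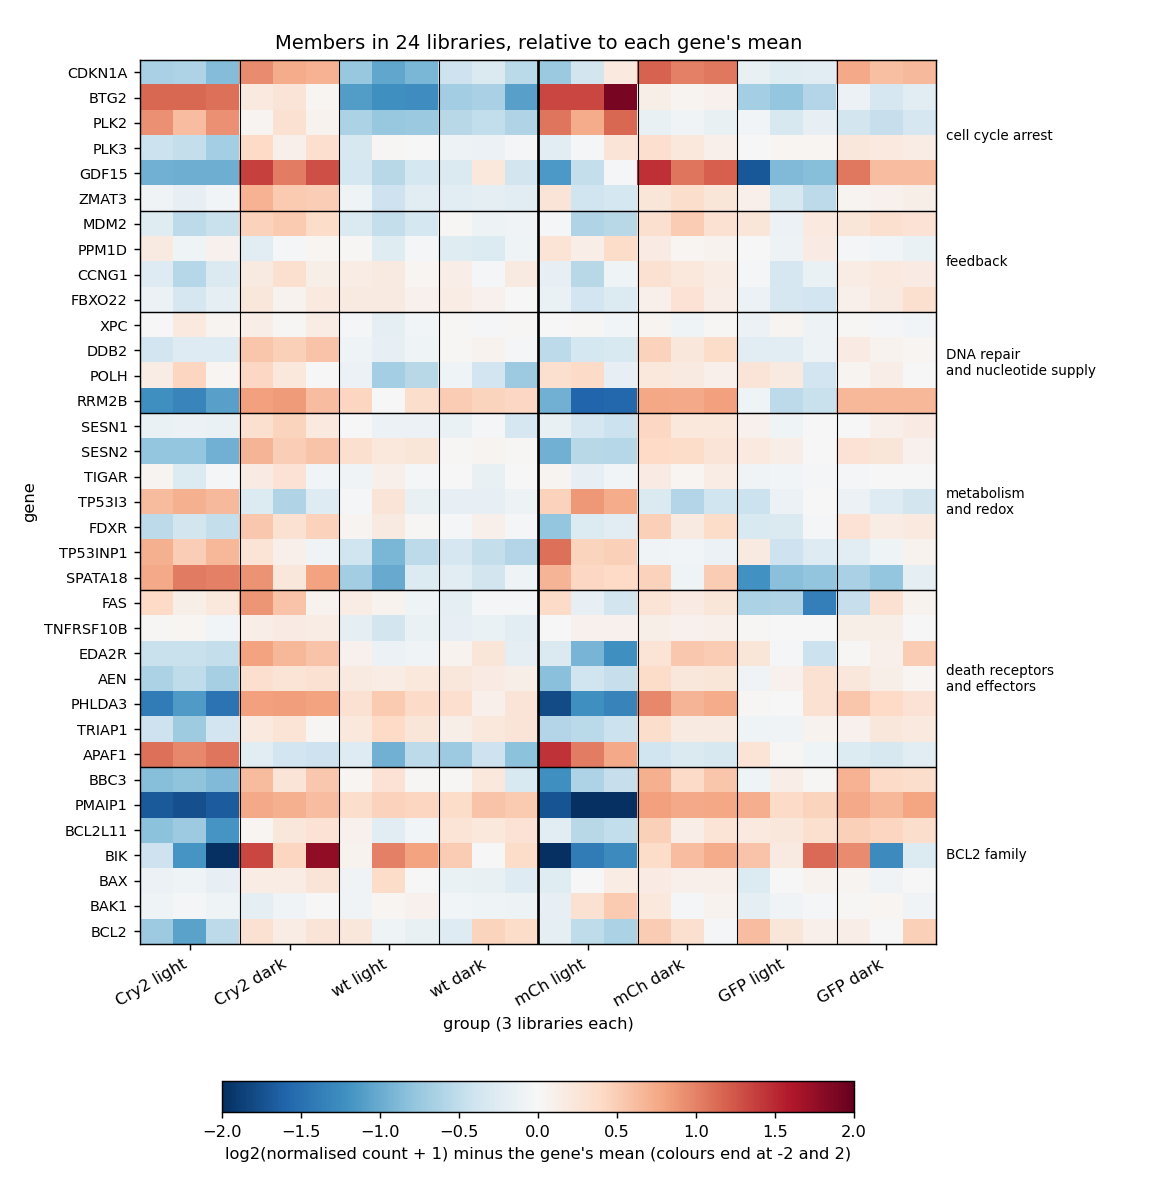
The heat map shows the 35 members (rows, ordered by role) in 24 libraries (columns, 3 per group), with colour for log2(normalised count + 1) minus the gene's mean over the 24 libraries, and the thick line parting monoculture from co-culture. PMAIP1, PHLDA3 and RRM2B are blue in the 6 illuminated engineered libraries, where BTG2 and APAF1 are red.

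Most of the members fell under light in engineered cells. In Cry2 light against Cry2 dark, 27 of the 35 were called, 5 higher and 22 lower, where 58.4% of the 19444 genes tested were called (28.1% higher and 30.4% lower). The members' median log2 change was -0.66, against -0.01 for all genes tested. In mCh light against mCh dark, 25 of the 35 were called, 5 higher and 20 lower, where 55.9% of 19436 genes were called (27.2% higher and 28.7% lower). The median was -0.48 for the members and -0.01 for all genes. All 25 went the same way in Cry2 cells, which is 92.59% of the members called there, and the other 2 of the 27 were PLK3 and BAX. No depth gap of the monoculture kind existed in co-culture, where mCh light libraries had 31807414 to 55593196 reads and mCh dark libraries 44162262 to 51948720. Without wt dark replicate 1, Cry2 dark replicate 3 and wt light replicate 2, 29 members were called in Cry2 cells, and without mCh light a 27 in mCh cells. The pluripotency and streak marker sums given above moved with light in the same libraries, and their part in these counts was not tested. Among markers of other cell types, SOX17 (endoderm), PAX6 and SOX1 (neural ectoderm) and PTPRC (blood) had at most 8.77, 6.59, 12.7 and 5.39 normalised counts in any library. FOXA2, the other endoderm marker, had at most 2.43 in Cry2 light and 5.66 in Cry2 dark, and 5.66 in mCh light, against 7.70 to 16.7 in mCh dark. The sum of 3 fibroblast markers (COL1A1, COL1A2 and THY1) was 58176 to 64868 in Cry2 light, against 43826 to 45796 in Cry2 dark, and 59522 to 72712 in mCh light, against 40641 to 44626 in mCh dark. The 3 did not move together. COL1A2 had 46294 to 51100 in Cry2 light, against 4549.7 to 5045 in Cry2 dark. THY1 had 7889 to 8730.3 in Cry2 light, against 34540 to 36574 in Cry2 dark, and COL1A1 overlapped between these groups. In co-culture COL1A1 did not overlap, with 4657 to 5675 in mCh light, against 3761 to 4240 in mCh dark. COL1A2 was also higher and THY1 lower in mCh light than in mCh dark, without overlap. The part of these markers in the counts was not tested.

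**Figure D2:**
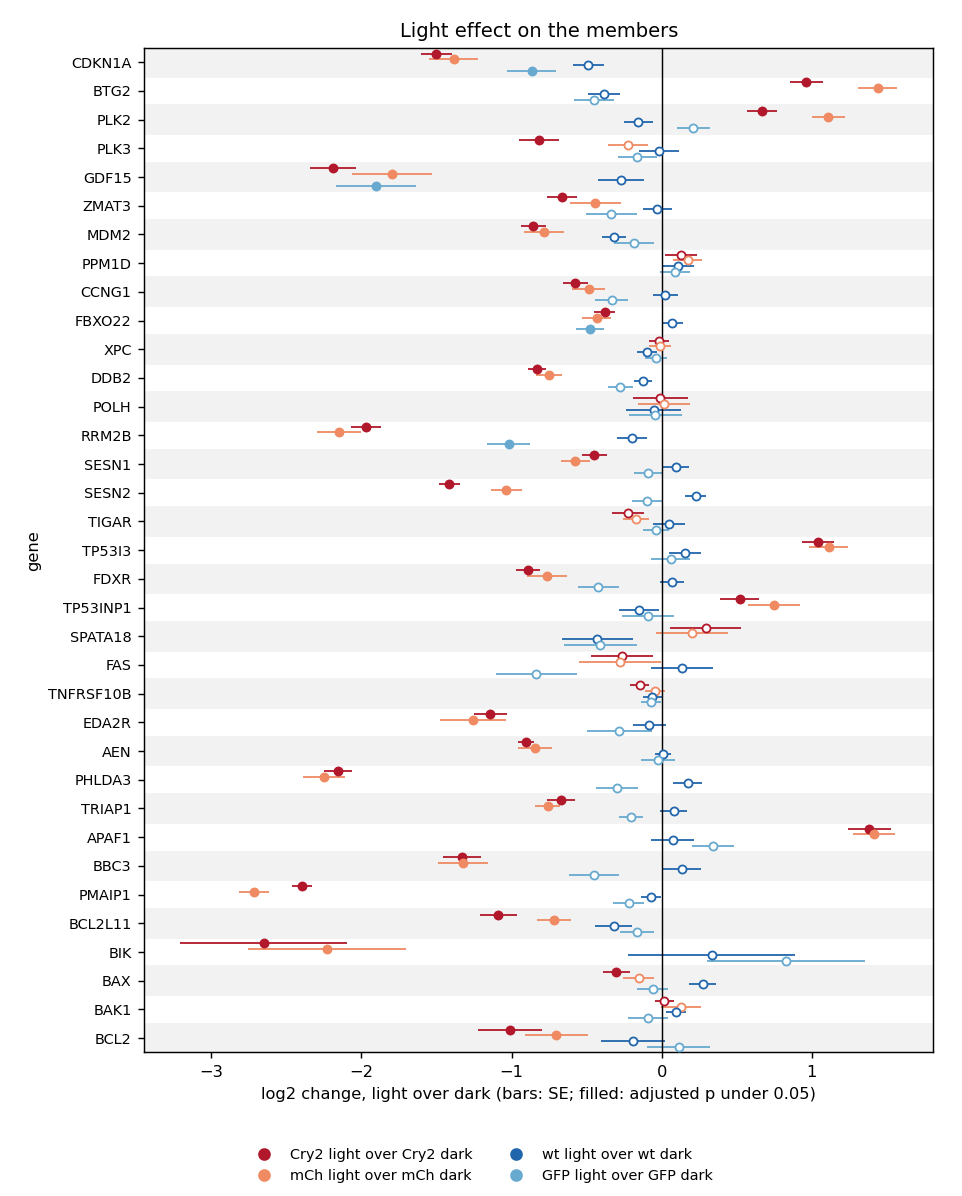
Points give the log2 change under light, light over dark (x axis), of each member (y axis) in Cry2, mCh, wt and GFP cells, with bars for the SE and filled points for an adjusted p under 0.05. In Cry2 and mCh cells the values run from -2.72 to 1.44, and no point of wt cells is filled.

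Among the genes of cell cycle arrest, 4 of 6 fell and 2 rose in Cry2 light. CDKN1A, which encodes p21, an inhibitor of cyclin-dependent kinases (ENSG00000124762, chr6:36676460-36687339, plus strand, positions of genes are those of GENCODE 29 on GRCh38), had 913, 933 and 781 normalised counts in Cry2 light, against 2752, 2381 and 2307 in Cry2 dark. In co-culture it had 853, 1108 and 1634 in mCh light, against 3244, 2863 and 2965 in mCh dark. The light libraries lay below the dark libraries in both cultures, with log2 changes of -1.50 ± 0.10 in Cry2 cells (SE, limma adjusted p = 5.16e-09) and -1.38 ± 0.16 in mCh cells (adjusted p = 3.74e-06). GDF15, which encodes a secreted stress cytokine of the TGF-beta family, had 168, 166 and 166 in Cry2 light, against 845, 664 and 798 in Cry2 dark. It had 147, 234 and 321 in mCh light, against 899, 691 and 749 in mCh dark. Again no light library reached a dark one, and the mean fell 4.61-fold in Cry2 cells and 3.33-fold in mCh cells. PLK3, a polo-like kinase, fell in Cry2 light (229 ± 20.5 against 404 ± 42.6 in Cry2 dark, SD, n = 3), while in co-culture its libraries overlapped and it was not called (333 ± 57.2 in mCh light and 386 ± 31.4 in mCh dark, adjusted p = 0.166). ZMAT3, an RNA-binding zinc finger protein, fell, with log2 changes of -0.66 in Cry2 light and -0.44 in mCh light, where its libraries overlapped and the call was lost in 7 of the 13 other settings tried (adjusted p up to 0.159), among them those without mCh light b, mCh light c or any 1 mCh dark library.

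The antiproliferative cofactor BTG2 (ENSG00000159388, chr1:203305491-203309602, plus strand) went the other way. It had 2195, 2215 and 2127 normalised counts in Cry2 light, against 1142, 1190.4 and 1021 in Cry2 dark. It had 2514, 2514 and 3711 in mCh light, against 1073, 1037 and 1054 in mCh dark. All 6 illuminated libraries lay above all 6 dark ones, mCh light c highest, and the log2 changes were 0.96 ± 0.11 and 1.44 ± 0.13 (adjusted p = 1.5e-06 and 2.15e-07). PLK2, a polo-like kinase whose promoter is shown above, also rose, with 1935, 1569 and 1931 in Cry2 light, against 1067, 1263 and 1082 in Cry2 dark. It had 2162, 1708 and 2274 in mCh light, against 924, 974 and 926 in mCh dark.

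**Figure D3:**
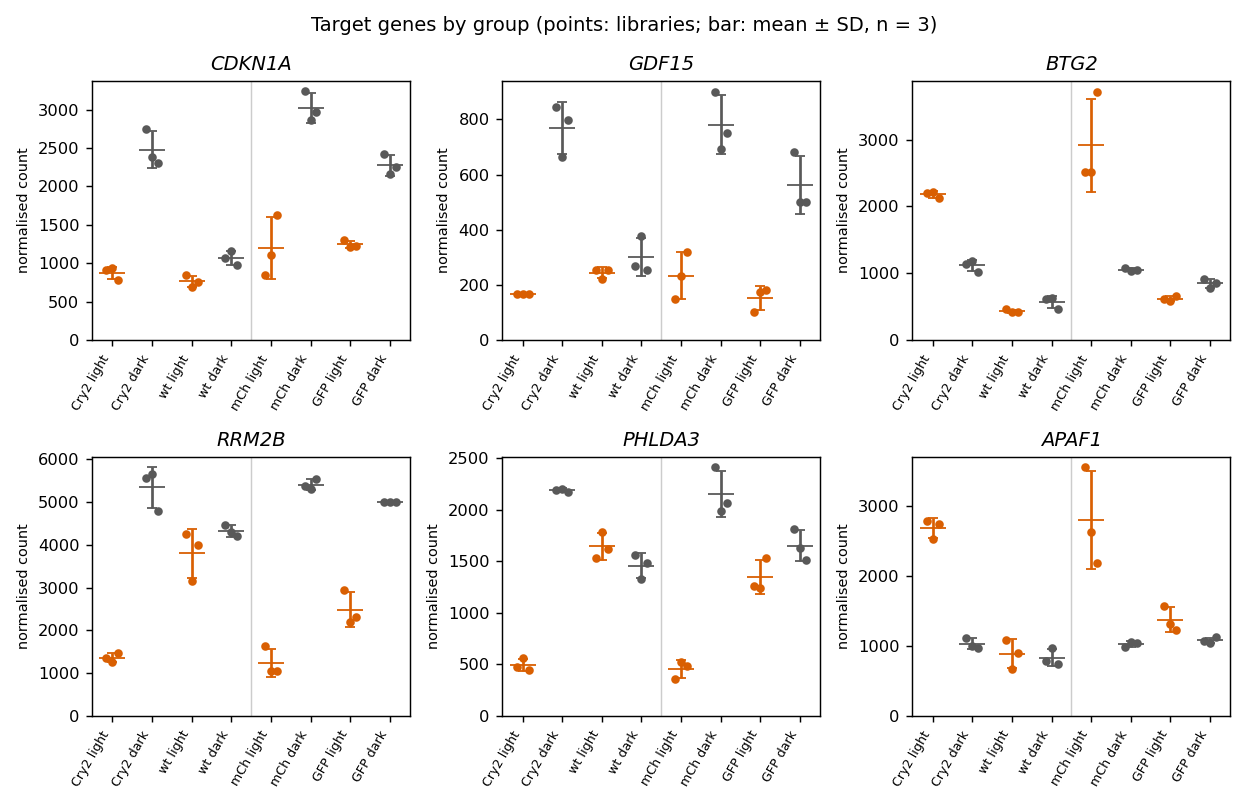
Normalised counts (y axis, from 0) of CDKN1A, GDF15, BTG2, RRM2B, PHLDA3 and APAF1 are plotted by group (x axis), with a point per library and a bar for the mean ± SD of 3 libraries, orange for light and grey for dark. The mean of CDKN1A was 875 in Cry2 light and 2480.0 in Cry2 dark, while that of APAF1 was 2689 in Cry2 light and 1031 in Cry2 dark.

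Of the 4 feedback genes, 3 fell in both engineered populations. MDM2 (ENSG00000135679, chr12:68808176-68850686, plus strand) had 1806, 1487 and 1558 normalised counts in Cry2 light, against 2939, 3076 and 2738 in Cry2 dark. It had 2062, 1403 and 1451 in mCh light, against 2648, 3044 and 2644 in mCh dark. The groups did not overlap in either culture, and the log2 changes were -0.85 ± 0.08 and -0.78 ± 0.13. MDM2 overlaps CPM on the opposite strand, and whether reads were counted by strand is not stated by the labels or files. CPM, a carboxypeptidase gene, went the other way, with means of 139 in Cry2 light and 22.6 in Cry2 dark. CCNG1 also fell, with log2 changes of -0.57 in Cry2 light and -0.48 in mCh light, as did FBXO22, an F-box subunit of a ubiquitin ligase (-0.38 and -0.43). PPM1D, the phosphatase WIP1 that dampens p53 signalling, was not called, with 853 ± 77.3 in Cry2 light and 781 ± 76.2 in Cry2 dark.

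DNA repair and nucleotide supply was split. RRM2B, the p53-inducible subunit of ribonucleotide reductase (ENSG00000048392, chr8:102204502-102239118, minus strand), had 1342, 1262 and 1479 normalised counts in Cry2 light, against 5563, 5661 and 4798 in Cry2 dark. It had 1622, 1051 and 1056 in mCh light, against 5383, 5294 and 5541 in mCh dark. The dark libraries of both cultures were at least 4798, and none of the 6 illuminated ones passed 1622. The mean fell 3.92-fold in Cry2 cells and 4.35-fold in mCh cells, with adjusted p of 1.56e-10 and 6.47e-09. DDB2, a damage recognition factor of nucleotide excision repair, fell, with log2 changes of -0.83 in Cry2 light and -0.75 in mCh light. XPC, which acts in the same pathway, had 3618 ± 245 in Cry2 light and 3658 ± 178 in Cry2 dark, a log2 change of -0.02 ± 0.07. POLH, the translesion polymerase eta, had a log2 change of -0.01 ± 0.19 in Cry2 cells and 0.02 ± 0.17 in mCh cells. Neither XPC nor POLH was called in either engineered population.

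In metabolism and redox, 3 of 7 genes fell and 2 rose in both populations. SESN2, a stress-induced sestrin that restrains mTORC1 (ENSG00000130766, chr1:28259527-28282491, plus strand), had 1594, 1579 and 1397 normalised counts in Cry2 light, against 4358, 3806 and 4024 in Cry2 dark. It had 1401, 1839.7 and 1829 in mCh light, against 3559, 3499.9 and 3251 in mCh dark. The groups lay far apart in both cultures, with log2 changes of -1.41 ± 0.07 and -1.03 ± 0.10. Its relative SESN1 fell too (log2 changes -0.45 and -0.58), and so did FDXR, the mitochondrial ferredoxin reductase (-0.89 and -0.76). TP53I3, a quinone oxidoreductase, rose, with 2269, 2393 and 2301 in Cry2 light, against 1213, 963 and 1222 in Cry2 dark. It had 2017, 2678 and 2447 in mCh light, against 1203, 979 and 1107 in mCh dark, so that the lowest light library was above the highest dark one. TP53INP1, a stress protein with a role in autophagy, rose by 0.52 and 0.75 on the log2 scale. TIGAR, a fructose bisphosphatase, and SPATA18, a mitochondrial quality control gene, were called in neither. Their log2 changes in Cry2 cells were -0.22 ± 0.11 and 0.29 ± 0.24.

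Among death receptors and effectors, 4 of 7 fell and 1 rose in both populations. PHLDA3, a repressor of AKT (ENSG00000174307, chr1:201464383-201469237, minus strand), had 470.5, 562 and 444 normalised counts in Cry2 light, against 2189.5, 2204 and 2168 in Cry2 dark. It had 355, 525 and 488 in mCh light, against 2409.5, 1984 and 2062 in mCh dark. None of these 6 illuminated libraries passed 562 and none of the 6 dark ones was under 1984, a mean fall of 4.44-fold in Cry2 cells and 4.72-fold in mCh cells. EDA2R, a receptor of the TNF receptor family, fell, with log2 changes of -1.14 in Cry2 light and -1.26 in mCh light. AEN, an apoptosis-enhancing nuclease (-0.90 and -0.84), and TRIAP1, a small p53-induced survival protein (-0.67 and -0.76), fell as well. FAS had 145, 119 and 126 in Cry2 light and 202, 163 and 115 in Cry2 dark, and was not called. It overlaps ACTA2 on the opposite strand, which had means of 212 in Cry2 light and 114 in Cry2 dark. TNFRSF10B, the death receptor DR5, had 5619 ± 210.2 in Cry2 light and 6221 ± 77.8 in Cry2 dark and narrowly missed the threshold (adjusted p = 0.0549).

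APAF1, the scaffold of the apoptosome (ENSG00000120868, chr12:98645141-98735433, plus strand), rose. It had 2789, 2527 and 2751 normalised counts in Cry2 light, against 1120.2, 995 and 976 in Cry2 dark. It had 3567, 2638 and 2194 in mCh light, against 984, 1061 and 1039 in mCh dark. All 6 of these illuminated libraries lay above the 6 dark ones, with mCh light a highest, and the log2 changes were 1.38 ± 0.14 and 1.42 ± 0.14 (adjusted p = 6.76e-07 and 6.09e-07).

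In the BCL2 family, 6 of 7 members fell in Cry2 light and 5 of 7 in mCh light, and none rose. PMAIP1, the BH3-only protein NOXA (ENSG00000141682, chr18:59899948-59904306, plus strand), had 1199, 1142 and 1217 normalised counts in Cry2 light, against 6509, 6339.6 and 5880.1 in Cry2 dark. It had 1163, 909.7 and 966 in mCh light, against 6801, 6496 and 6584 in mCh dark. The light libraries were tightly grouped below the dark ones, and the mean fell 5.26-fold and 6.54-fold, with adjusted p of 1.31e-13 and 9.44e-12, the smallest among the members in each population. BBC3, or PUMA, had 609.8, 632 and 596 in Cry2 light, against 1722, 1328 and 1601 in Cry2 dark. It had 469.9, 717 and 799 in mCh light, against 1814, 1443 and 1624 in mCh dark. Its groups were also apart, and the log2 change was -1.33 in both populations. BCL2L11, or BIM, had 374, 399 and 291 in Cry2 light, against 678, 771 and 804 in Cry2 dark, with log2 changes of -1.09 there and -0.72 in mCh light.

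BIK was barely expressed, and its fall rests on few reads. It had 9.05, 4.86 and 0.887 normalised counts in Cry2 light, against 32.6, 17.0 and 44.6 in Cry2 dark. It had 1.75, 4.04 and 4.51 in mCh light, against 16.3, 19.5 and 21.4 in mCh dark. The groups did not overlap, but the SE of its log2 change was wide (-2.65 ± 0.56 in Cry2 cells and -2.23 ± 0.53 in mCh cells). The survival gene BCL2 fell as well, to 84.1, 66.4 and 96.7 in Cry2 light, against 172, 156 and 168 in Cry2 dark. It had 124, 98.7 and 90.3 in mCh light, against 199, 175 and 138 in mCh dark, a call that was lost without mCh dark a (adjusted p = 0.0519). BAX and BAK1 encode the pore-forming effectors. BAX had 6295, 6462 and 6128 in Cry2 light, against 7550.4, 7544 and 8205 in Cry2 dark, a log2 change of -0.30 ± 0.09 that passed the threshold but was lost in 1 of the 15 other settings tried, without wt dark replicate 1 and Cry2 dark replicate 3 (adjusted p = 0.0565). In mCh cells it did not pass (-0.15 ± 0.10, adjusted p = 0.226). BAK1 had log2 changes of 0.02 ± 0.07 and 0.13 ± 0.13 and was called in neither.

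**Figure D4:**
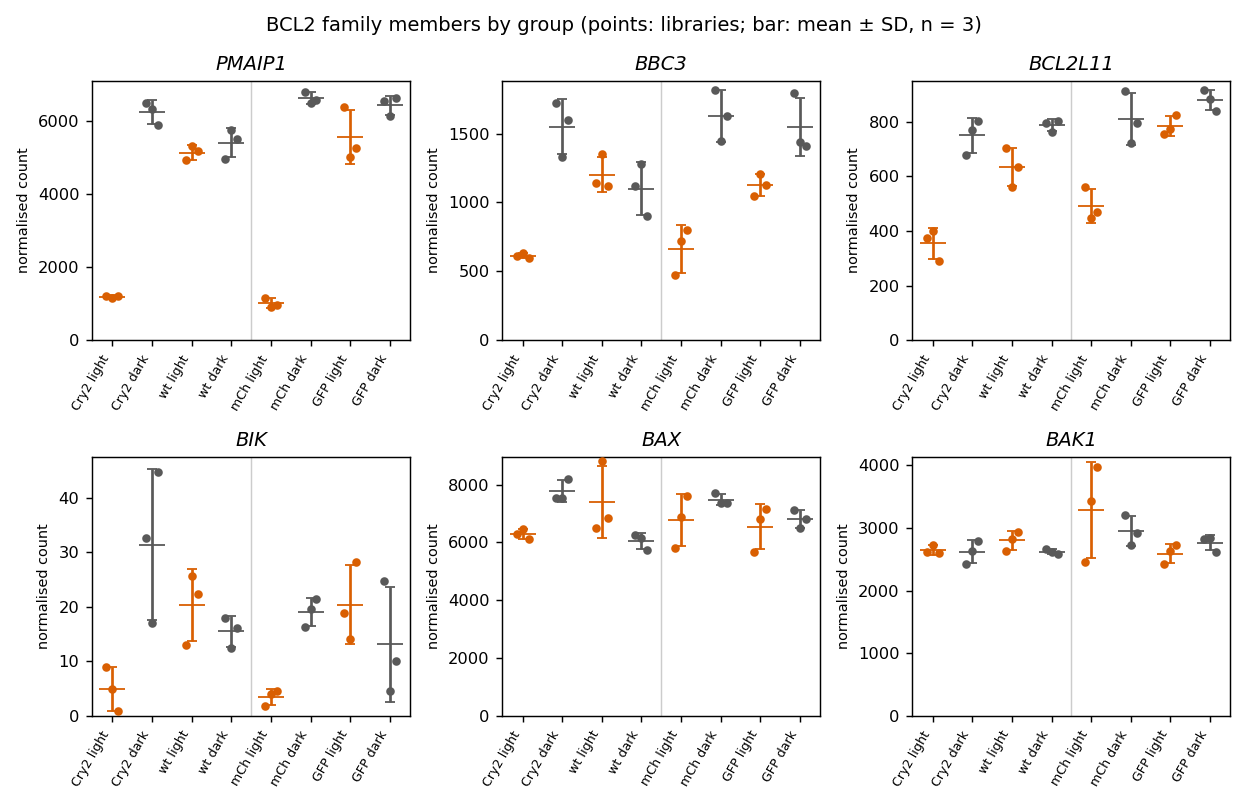
Normalised counts (y axis, from 0) of 6 BCL2 family members are plotted by group (x axis), with a point per library and a bar for the mean ± SD of 3 libraries, orange for light and grey for dark. PMAIP1 had means of 1186 in Cry2 light and 6243 in Cry2 dark, and BAK1 of 2650 in Cry2 light and 2620 in Cry2 dark.

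In wt light against wt dark, none of the 35 members was called by limma, where 0.0720% of the 19444 genes tested were called (0.0309% higher and 0.0411% lower). At an unadjusted p under 0.05 there were 6, against 2559 of the 19444 genes tested. The count model edgeR called 0, and DESeq2 called 3 (CDKN1A, BTG2 and MDM2, all lower). CDKN1A had 844, 694 and 758 normalised counts in wt light and 1073, 1164 and 982 in wt dark. The light libraries lay below the dark ones without overlap, with a log2 change of -0.49 ± 0.10 (limma adjusted p = 0.093). BTG2 had 459, 424 and 418 in wt light and 612, 632 and 468 in wt dark, and MDM2 had 1736, 1538 and 1677 in wt light and 2155, 1978 and 2028 in wt dark. In both genes every light library lay below every dark one, with log2 changes of -0.38 and -0.32. BAX reached 6500.2, 8808 and 6842 in wt light and 6243, 6166 and 5745 in wt dark. The highest of these values was that of wt light replicate 2, a library that stood apart.

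In GFP light against GFP dark, wild-type cells that had shared a culture with illuminated engineered cells, 4 of the 35 members fell and none rose, where 4.60% of the 19436 genes tested were called (2.39% higher and 2.21% lower). The 4 were GDF15, RRM2B, CDKN1A and FBXO22. GDF15 had 101, 176 and 181 normalised counts in GFP light, against 681, 500.1 and 502 in GFP dark, a 3.68-fold fall of the mean (log2 change -1.91 ± 0.27, adjusted p = 0.000551). RRM2B had 2950.3, 2192 and 2316 in GFP light, against 4994, 5007 and 4994 in GFP dark, a 2.01-fold fall (log2 change -1.02 ± 0.14, adjusted p = 0.000622). CDKN1A had 1297, 1215 and 1231 in GFP light, against 2426, 2158 and 2249.6 in GFP dark (log2 change -0.87 ± 0.16, adjusted p = 0.00622). In all 3 genes every light library lay under every dark library. FBXO22 had 2790.1, 2391 and 2325 in GFP light, against 3259, 3413 and 3764 in GFP dark, and its call was lost in 3 of the 13 other settings tried (without GFP light b, GFP light c or GFP dark c). PMAIP1, which fell so far in engineered cells, had 6399.8, 5003 and 5264 in GFP light and 6548, 6134 and 6626 in GFP dark, with overlap between the groups and no call. DESeq2 called 7, and a fit of the 2 groups alone 10 (1 higher and 9 lower). Without mCh light a, whose spread enters the shared error of the co-culture fit, 11 were called (1 higher and 10 lower), the further ones being BTG2, FDXR, DDB2, CCNG1, BBC3, FAS and, higher in GFP light, APAF1. Leaving out each GFP light library in turn, among them the one with low GC, left 3 or 4 called.

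Markers of other states also differed between GFP light and GFP dark. The streak and mesoderm sum was 653 to 711 in GFP light and 206 to 249 in GFP dark, and the pluripotency sum was 300460 to 328550 in GFP light and 274940 to 284150 in GFP dark. POU5F1, NANOG and DNMT3B were higher in GFP light without overlap. SOX2 was lower, with 7436 to 7439 in GFP light and 8181 to 8837 in GFP dark, and so was TDGF1, with 14095 to 16337 in GFP light and 17903 to 20488 in GFP dark, also without overlap. The receptor fusion had 358 to 422 normalised counts in GFP light and 349 to 398 in GFP dark. The part of these markers in the result was not tested.

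The light effects themselves were compared in a test of the difference. Against wt cells, Cry2 cells had a different light effect in 27 of the 35 members, 5 with a higher and 22 with a lower change, where 47.8% of all genes tested were called (22.8% higher and 25.0% lower). Against GFP cells, mCh cells had a different light effect in 19, 5 higher and 14 lower, where 40.5% were called (19.5% higher and 21.0% lower). PMAIP1 differed by -2.32 ± 0.09 in monoculture and by -2.50 ± 0.15 in co-culture on the log2 scale. GDF15 differed by -1.92 ± 0.22 in monoculture (adjusted p = 2.92e-06), while in co-culture the difference was 0.11 ± 0.38 (adjusted p = 0.847), where GDF15 fell in both populations. For CDKN1A these differences were -1.01 ± 0.15 and -0.52 ± 0.23, and the co-culture value did not pass (adjusted p = 0.0916). The light effect of mCh cells differed from that of Cry2 cells in 0 of the 35 by limma, 0 by edgeR and 0 by DESeq2. By limma 0.0640% of 20322 genes were called (0.0246% higher and 0.0394% lower). At an unadjusted p under 0.05 there were 6 members, against 1018 of the 20322 genes. Without mCh light a 1 member, SESN2, was called. The light effect of GFP cells was below that of wt cells in 3 members, GDF15 (-1.63 ± 0.32), RRM2B (-0.82 ± 0.19) and FBXO22 (-0.55 ± 0.12), where 2.30% of genes were called (1.41% higher and 0.886% lower). Culture, sorting and library batch cannot be told apart in these last comparisons.

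In the dark, engineered cells grown alone had more of many p53 targets than wild-type cells. In Cry2 dark against wt dark, 16 of the 35 members rose and none fell, where 3.60% of the 19444 genes tested were called (2.27% higher and 1.33% lower). The median log2 change of the members was 0.42, against 0.01 for all genes tested, and 31 of the 35 changes were positive. Of the 6 genes grouped under arrest, GDF15 among them, 5 rose. CDKN1A had 2752, 2381 and 2307 normalised counts in Cry2 dark, against 1073, 1164 and 982 in wt dark, and GDF15 had 845, 664 and 798 in Cry2 dark, against 268, 378 and 253 in wt dark. In both genes the lowest engineered library was above the highest wild-type one, and the log2 changes were 1.21 ± 0.10 and 1.37 ± 0.15 (adjusted p = 5.64e-06 and 8.4e-05). BTG2 had 1142, 1190.4 and 1021 in Cry2 dark, against 612, 632 and 468 in wt dark, and ZMAT3 had 1094, 968 and 952 in Cry2 dark, against 581, 591 and 582 in wt dark. PLK2 rose by 0.69 on the log2 scale.

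The remaining 11 members that were higher in Cry2 dark came from the other 5 roles. MDM2 had 2939, 3076 and 2738 normalised counts in Cry2 dark, against 2155, 1978 and 2028 in wt dark, without overlap. DDB2 rose by 0.52, SESN2 by 0.55, SESN1 by 0.49, FDXR by 0.42 and TP53INP1 by 0.57 on the log2 scale. Among receptors and effectors, EDA2R rose by 0.63, PHLDA3 by 0.59 and TNFRSF10B by 0.32. In the BCL2 family BBC3 (0.50, adjusted p = 0.0402) and BAX (0.36, adjusted p = 0.0389) rose close to the threshold. PMAIP1 did not pass (6243 ± 325 in Cry2 dark and 5409 ± 398 in wt dark, adjusted p = 0.106), and neither did RRM2B (5341 ± 472 and 4320.3 ± 136, adjusted p = 0.122). BCL2, BAK1, BCL2L11 and TRIAP1 had log2 changes between -0.07 and 0.05. The libraries of this comparison include the low-GC wt dark replicate 1 and the low-RIN Cry2 dark replicate 3. The endoderm marker FOXA2 had 1.31 to 5.66 normalised counts in Cry2 dark, against 35.8 to 44.8 in wt dark (43.6 to 122 in wt light), and its part in the result was not tested. Without wt dark replicate 1 and Cry2 dark replicate 3, 12 of the members were called, and 17 without these and wt light replicate 2. In 15 other settings 11 of the 16 were called each time, and the other 5 were BAX, BBC3, FDXR, TNFRSF10B and TP53INP1.

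**Figure D5:**
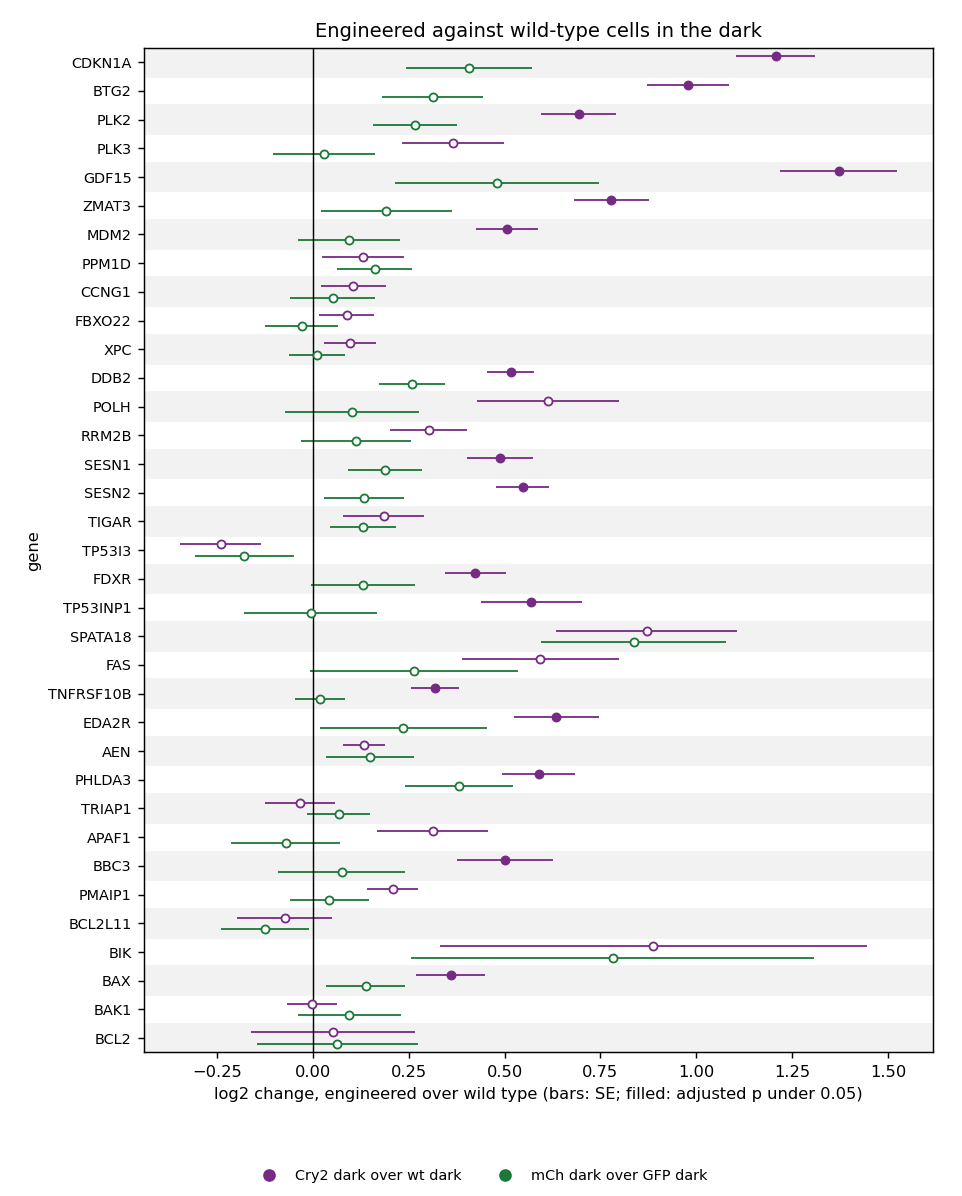
Points give the log2 change of engineered over wild-type cells in the dark (x axis) for each member (y axis), in monoculture (Cry2 dark over wt dark) and in sorted co-culture (mCh dark over GFP dark), with bars for the SE and filled points for an adjusted p under 0.05. In monoculture 16 points are filled and in co-culture none.

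The same comparison in sorted cells, mCh dark against GFP dark, called none of the 35 by limma, where 0.797% of genes were called (0.453% higher and 0.345% lower). There were 6 at an unadjusted p under 0.05, against 1098 of the 19436 genes tested. With edgeR 0 were called, with DESeq2 1 (SPATA18, higher) and with a fit of the 2 groups alone 2. Over the 13 other settings, the members called in any were CDKN1A, PHLDA3 and SPATA18, all higher in mCh dark. Both populations were sorted from co-cultures, and the labels do not say which mCh and GFP libraries came from the same one. These fits therefore did not pair them, and the effect of a pairing on the calls was not tested. Positive changes were seen in 30 of the 35, with a median of 0.13 against 0.00 for all genes. CDKN1A had 3244, 2863 and 2965 normalised counts in mCh dark and 2426, 2158 and 2249.6 in GFP dark, and GDF15 had 899, 691 and 749 in mCh dark and 681, 500.1 and 502 in GFP dark. In both genes the mCh libraries lay above the GFP libraries without overlap, by 0.41 ± 0.16 and 0.48 ± 0.27 on the log2 scale. SPATA18 had 119.8, 81.9 and 124 in mCh dark and 54.9, 50.3 and 75.8 in GFP dark. Whether the line difference was larger in monoculture was tested on all 24 libraries, a test added after the data had been seen. It called 0 of the 35 by limma and 0 by edgeR and by DESeq2, where 0.00492% of genes were called (0.00492% higher and 0.00% lower). At an unadjusted p under 0.05 there were 11 members, against 807 of the 20322 genes tested. CDKN1A had a difference of 0.80 ± 0.20 there (adjusted p = 0.978).

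In light, few of these genes were still higher in the engineered cells. In Cry2 light against wt light, 27 of the 35 members were called, 9 higher and 18 lower, where 60.9% of genes were called (29.6% higher and 31.3% lower). Of the 16 members that were higher in Cry2 dark than in wt dark, 4 were higher, 8 lower and 4 not called in this comparison. Among the 8, the call of BAX (adjusted p = 0.0479) was lost in 8 of the 15 other settings and that of DDB2 in 2. The call of XPC, higher in Cry2 light, was lost in 7. CDKN1A had 913, 933 and 781 normalised counts in Cry2 light and 844, 694 and 758 in wt light, overlapping, and was not called (adjusted p = 0.116). MDM2 (1617 ± 167 in Cry2 light and 1651 ± 102 in wt light), ZMAT3 and SESN1 were not called either. PHLDA3 was 3.34-fold lower in Cry2 light, with 470.5, 562 and 444 against 1529, 1786 and 1618 in wt light. BTG2 was 5.02-fold higher and APAF1 3.03-fold higher in Cry2 light than in wt light. SPATA18, called under light in neither line, was higher in Cry2 light, with 148, 181 and 176 against 53.6, 42.8 and 71.9 in wt light (adjusted p = 2.91e-05).

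Sorted cells gave the corresponding comparison. In mCh light against GFP light, 22 members were called, 8 higher and 14 lower, where 54.3% of genes were called (26.8% higher and 27.6% lower). Of the 22, 5 were lost in some of the 13 other settings. PPM1D and DDB2 were lost in 9 each, FAS in 4, SESN1 in 3 and EDA2R in 1. CDKN1A had 853, 1108 and 1634 normalised counts in mCh light and 1297, 1215 and 1231 in GFP light, GDF15 147, 234 and 321 in mCh light and 101, 176 and 181 in GFP light. Both overlapped and neither was called (adjusted p = 0.6 and 0.0742). SPATA18 was again higher, with 139, 116 and 114 in mCh light against 36.8, 48.0 and 49.9 in GFP light. PMAIP1 was 5.49-fold lower and RRM2B 2.00-fold lower in mCh light than in GFP light. eGFP, which marks the wild-type cells, had 14.6 to 29.8 normalised counts in mCh light, 3.42 to 5.58 in mCh dark and 11980.0 to 14466 in GFP light, and its part in these results was not tested.

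Across cultures, engineered cells in the dark gave no call among the 35. In mCh dark against Cry2 dark 0 were called by limma (0 by edgeR and 0 by DESeq2), where 0.0148% of 20322 genes were called (0.00984% higher and 0.00492% lower). At an unadjusted p under 0.05 there were 3 members, against 1076 of the 20322 genes. The log2 changes lay between -0.60, for BIK, and 0.29, for CDKN1A. In GFP dark against wt dark 1 was called, CDKN1A, where 0.0295% of genes were called (0.0246% higher and 0.00492% lower). It had 2426, 2158 and 2249.6 normalised counts in GFP dark, against 1073, 1164 and 982 in wt dark, a log2 change of 1.09 ± 0.14 (adjusted p = 0.00169), with every sorted library above every monoculture library. At an unadjusted p under 0.05 there were 12, against 1578 of the 20322 genes tested. DESeq2 called 4 and a fit of these 2 groups alone 10. GDF15 had 681, 500.1 and 502 in GFP dark and 268, 378 and 253 in wt dark, and BBC3 1791, 1436 and 1412 in GFP dark and 1120.0, 1281 and 899 in wt dark. Neither was called, although neither overlapped. The GFP dark cells were co-cultured and sorted, steps that cannot be told apart here.

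Genes around the pathway were taken from 3 further lists. Of 17 tested regulators of p53, 3 rose and 6 fell in Cry2 light, with a median log2 change of -0.02, against -0.01 for all genes, so that 52.9% were called, against 58.4% of all genes tested. TP73, which encodes a p53 relative, fell (-2.37 in Cry2 light and -1.88 in mCh light), and so did SIRT1, a deacetylase of p53 (-0.72 and -0.70). HIPK2, a kinase that phosphorylates p53, rose by 1.60 and 1.63, and TP53BP1, a DNA damage response mediator, by 0.98 and 0.93. In mCh light the count was again 3 higher and 6 lower, of 16 tested (56.25%, against 55.9% of all genes).

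Of 24 further p53 targets tested, 5 rose and 12 fell in Cry2 light (median -0.27), and 5 rose and 10 fell in mCh light (median -0.24). These are 70.8% and 62.5% of the list, against 58.4% and 55.9% of all genes tested. The farthest falls were those of GLS2, a glutaminase, with log2 changes of -7.04 and -7.85, TRIM22 (-5.48 and -6.41) and IGFBP3, an IGF-binding protein (-5.25 and -6.86). LIF, a cytokine, fell too (-1.92 and -1.78). Of those that rose, CES2, E2F7, IER5 and TNFRSF10D changed by less than 1 log2 unit in either population. In Cry2 dark against wt dark 7 of the 24 rose and none fell (29.2%, against 3.60% of all genes, median 0.35), among them PIDD1 (0.61). In mCh dark against GFP dark 0 were called by limma. There 3 had an unadjusted p under 0.05, against 1098 of the 19436 genes tested.

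Of 26 further apoptosis genes tested, 8 rose and 10 fell in Cry2 light (median 0.02), and 8 rose and 8 fell in mCh light (median 0.02). The shares called, 69.2% and 61.5%, compare with 58.4% and 55.9% of all genes tested. Among BCL2 relatives the BH3-only gene HRK fell (-3.17 and -2.94), and so did the survival gene BCL2L1 (-1.82 and -1.57). BMF had a log2 change of -0.74 in Cry2 light and BOK of -0.48 in mCh light. CFLAR, a caspase-8 inhibitor, rose by 1.72 and 1.81. TNFRSF10A, a TRAIL receptor, fell (-1.14 and -1.79). In GFP light against GFP dark, the calls in these 3 lists included TP53BP1 (0.38), PERP (0.48), TRIM22 (-1.08) and BCL2L2 (-0.35). In wt light against wt dark no gene of the 3 lists was called by limma. At an unadjusted p under 0.05 there were 6, 3 and 6, against 2559 of the 19444 genes tested.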

How the data were processed

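RNA libraries, 24 in all, were prepared with a TruSeq Stranded mRNA kit, per the labels' protocols, and the submitters' processing notes name FastQC, cutadapt, Bowtie2, STAR, HTSeq and DESeq without versions. The authors deposited gene counts divided by a size factor (a normalised signal), with a sample table that holds percent GC, a RIN score and a read count per library, used here for the 12 monoculture libraries, whose rows match their labels. The notes name GRCh38 and the table's header hg19, so positions were taken from GENCODE 29 (GRCh38) by gene ID. Columns left unmapped numbered 0. Monoculture groups follow the sample titles, with which the genotype tags conflict, and co-culture libraries a to c follow column order. All values were whole multiples of 1 read within 0.01 (100% in every library).

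Values were tested with limma 3.58.1 (R 4.3.3) on log2(value + 1), for genes of at least 10 in at least 3 libraries, with Benjamini-Hochberg adjustment over all genes tested. Each culture's 12 libraries were fitted together (19444 and 19436 genes), and comparisons between cultures used all 24 (20322 genes). The scripts were tested on simulated data. Alternatives were a pseudocount of 10, no filter, TMM scaling, edgeR 4.0.16 and DESeq2 1.42.0 on the recovered reads, 2-group fits, a replicate block, and leaving libraries out. In monoculture, 0 of the correlations of deviations from the group means exceeded 0.1 in 18 same-number pairs. No shared effect of a replicate number was seen there, which does not show that the libraries were unpaired. Co-culture libraries were neither checked in this way nor paired in any fit, as the labels do not say which mCh and GFP libraries shared a co-culture. Pairs of libraries within a group differed by 4.2 to 71.09 chi-square per degree of freedom in read counts, so none was a repeat deposit. The members and lists were chosen with earlier results of these data known. All 35 members could be named; other genes were up to 4 per direction with the largest change among the called genes of each list, plus CPM and ACTA2, which overlap members. Some genes that this rule named are not reported here, though the lists' counts and medians include them. Of the members, 14 share at least 50 bases of exon with a gene on the opposite strand and 4 with one on the same strand.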

Additional observations from a re-analysis of the deposited data

Results flagged for a closer look

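Members whose light effect differed between populations, each by a limma test of the difference itself, are given as differences of log2 changes, with the engineered population minus the wild-type one. In monoculture (Cry2 minus wt) the arrest and feedback genes were CDKN1A (-1.01), BTG2 (1.35), PLK2 (0.83), PLK3 (-0.80), GDF15 (-1.92), ZMAT3 (-0.64), MDM2 (-0.54), CCNG1 (-0.60) and FBXO22 (-0.45). The repair and metabolism genes were DDB2 (-0.71), RRM2B (-1.77), SESN1 (-0.54), SESN2 (-1.64), TP53I3 (0.89), FDXR (-0.96) and TP53INP1 (0.67). The genes of the last 2 roles, death receptors and effectors and the BCL2 family, were EDA2R (-1.06), AEN (-0.91), PHLDA3 (-2.33), TRIAP1 (-0.75), APAF1 (1.31), BBC3 (-1.47), PMAIP1 (-2.32), BCL2L11 (-0.77), BIK (-2.99), BAX (-0.58) and BCL2 (-0.82). TRIAP1 and BCL2 among them are survival genes.

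In co-culture (mCh minus GFP) the arrest and feedback genes were BTG2 (1.89), PLK2 (0.90) and MDM2 (-0.60). The repair and metabolism genes were DDB2 (-0.48), RRM2B (-1.13), SESN1 (-0.49), SESN2 (-0.94), TP53I3 (1.05) and TP53INP1 (0.84). The genes of the last 2 roles were EDA2R (-0.97), AEN (-0.82), PHLDA3 (-1.95), TRIAP1 (-0.56), APAF1 (1.07), BBC3 (-0.87), PMAIP1 (-2.50), BCL2L11 (-0.55), BIK (-3.06) and BCL2 (-0.82). Between the wild-type populations (GFP minus wt) they were GDF15 (-1.63), RRM2B (-0.82) and FBXO22 (-0.55). Some of these calls were lost in other settings. In mCh minus GFP this held for BCL2 in 9 of 18 settings and for MDM2 and EDA2R in 2 of 18 each, in Cry2 minus wt for BCL2 in 7 of 20 and TP53INP1 in 2 of 20, and in GFP minus wt for RRM2B and FBXO22 in 1 of 18 each.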

How the results depend on the processing

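No called member reversed direction in any setting. Of the single-gene values, 7866 kept their side of the threshold, 101 lost a call and 80 gained one. Direction was compared only for members called in the main fit, and some changes that were not called switched sign between settings. Counts of called members under DESeq2 were 3 in wt light (0 by limma), 7 in GFP light (4), 1 in mCh dark against GFP dark (0) and 4 in GFP dark against wt dark (1). GFP light gave 11 without mCh light a. Fits of 2 groups alone gave 10 in GFP light, 2 in mCh dark against GFP dark and 10 in GFP dark against wt dark. Leaving out 1 library of the groups compared at a time gave 27 to 29 in Cry2 light, 12 to 15 in Cry2 dark against wt dark, 25 to 28 in Cry2 light against wt light, 23 to 27 in mCh light, 3 to 4 in GFP light and 18 to 21 in mCh light against GFP light. The differences of light effects gave 26 to 28 (Cry2 minus wt), 17 to 20 (mCh minus GFP), 0 to 1 (mCh minus Cry2) and 2 to 3 (GFP minus wt), and GFP dark against wt dark gave 1 each time. Libraries of the monoculture with the same replicate number showed no strong shared effect. With a replicate block, 27 members were called in Cry2 light and 0 in wt light. It gave 17 in Cry2 dark against wt dark, 27 in Cry2 light against wt light and 27 in the difference of light effects. The cause of these changes was not tested.

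Over all genes, calls in wt light numbered 14, against 47 by edgeR, 290 by DESeq2, 4 with 2 groups, 2 without the low-GC and low-RIN dark libraries and 3 to 32 leaving 1 out. Cry2 dark against wt dark gave 700, against 1234 by DESeq2, 2470 with 2 groups, 267 without those libraries and 327 to 411 leaving 1 out. GFP light gave 894, against 1451 by DESeq2, 1356 with 2 groups, 1563 without mCh light a, which is in neither group, and 484 to 781 leaving out 1 library of the 2 groups, as in the other ranges here. The dark lines of co-culture gave 155, against 291 by DESeq2, 385 with 2 groups and 93 to 106. GFP dark against wt dark gave 6, against 47 by DESeq2, 544 with 2 groups, 12 without the 4 libraries that stood apart and 1 to 2 leaving 1 out. In mCh dark against Cry2 dark there were 3, against 23 by DESeq2, 64 with 2 groups and 12 without those 4. The light effect of GFP minus wt gave 467, against 763 by DESeq2 and 271 to 494 leaving 1 out. That of mCh minus Cry2 gave 13, against 8 by edgeR, 24 by DESeq2, 48 without those 4 and 0 to 80. Depth limits BIK, at 31.4 normalised counts or fewer on average in every group.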

Other observations

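BCL2L1 and MCL1, survival genes of the BCL2 family outside the 35, differed between the lines in the dark in both cultures, and so did genes next to them. BCL2L1 (chr20:31664452-31723989) had a log2 change of 0.72 ± 0.07 in Cry2 dark against wt dark and 0.71 ± 0.12 in mCh dark against GFP dark. Within 1000000 bases on each side of it, 13 of 23 tested neighbours were called higher and 0 lower in the first comparison (median log2 change 0.62), and 11 of 24 higher and 0 lower in the second (median 0.62). MCL1 (chr1:150574551-150579738) had -0.65 ± 0.05 and -0.63 ± 0.11. Of its 57 tested neighbours, 16 were called lower and 0 higher in the first comparison (median -0.26) and 12 lower and 0 higher in the second (median -0.19). Of all genes tested, 2.27% were called higher and 1.33% lower in the first comparison, and 0.453% higher and 0.345% lower in the second. These windows were looked at after the values of the 2 genes had been seen, and no DNA copy number was measured in the files used here.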
